A study of Mus musculus with 36 samples.

Results

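The Ms4a (membrane-spanning 4-domains, subfamily A) genes described here are Ms4a4a, Ms4a4c, Ms4a6b, Ms4a6c, Ms4a6d, Ms4a7, Ms4a8a and Ms4a14, found by gene symbol as 8 of the 54532 genes in the count table of bone-marrow-derived macrophages (BMDMs). The family was selected on a measured value, the lower level of Ms4a4c under lipopolysaccharide (LPS) when the Core Circadian Modulator (CCM), a ligand of the PASB domain of the clock factor BMAL1, was present. LPS+CCM against LPS is therefore the contrast behind the choice, and the members are only described in it, in both genotypes and with no test. BMDMs were grown with MCSF from marrow of adult female C57BL/6 mice. All animals carried floxed Bmal1 alleles (Bmal1 flox/flox). The wild-type group (WT, n = 3) had no Cre, and the knockout group (KO, n = 6) carried LysM-Cre, which is expressed in myeloid cells and deletes the floxed segment only as far as Cre acts. Each genotype received DMSO vehicle, 100 µM CCM, 100 nM LPS or both agents for 6 h, which gave 36 libraries in 8 groups.

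MS4A proteins cross the plasma membrane several times and associate with other receptors. The family is best known from MS4A1, the B-cell antigen CD20, and from MS4A2, the beta chain of the high-affinity IgE receptor. In macrophages, MS4A4A has been found with the beta-glucan receptor Dectin-1 (Clec7a), and the MS4A4A and MS4A6A genes in humans are linked to the level of soluble TREM2. LPS acts through the receptor TLR4, which leads to NF-kB activation and to production of type I interferon, and the latter induces a second set of genes through interferon regulatory factors.

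The libraries held 13469262 to 28288923 counted read pairs (median 19951421). The libraries expressed all 8 macrophage markers, with a summed level of 11546 to 23219 CPM (counts scaled to library size with the trimmed mean of M values). The median sum was lower in KO than in WT in each treatment, at 13179 and 17798 CPM with vehicle, for reasons not tested. Lyz2 had the most counts of this list, so the sum is no measure of macrophage content. Of other cell types, the 5 B-cell markers summed to 21.9 to 252 CPM, the 5 T-cell markers to 5.93 to 33.4 CPM, the 6 mast-cell markers (1 of them at 0 counts in every library) to 3.24 to 12.7 CPM and the 7 neutrophil and precursor markers to 320 to 969 CPM. The 5 dendritic-cell markers summed to 1.38 to 14.2 CPM, the 6 erythroid markers to 1.20 to 11.1 CPM and the 5 fibroblast markers to 302 to 1660 CPM. The part of these cells in the values below was not tested, and in bulk RNA fewer cells of a type and less RNA per cell cannot be told apart. The targeted gene, Arntl (Bmal1), was at 8.71 ± 1.23 CPM in WT vehicle (SD, n = 3) and 6.70 ± 1.96 CPM in KO vehicle libraries (SD, n = 6), with overlapping values (7.52 to 9.98 and 2.87 to 7.98 CPM) and an adjusted p of 1 in edgeR. Counts summed over all exons of a gene check the loss of a floxed segment poorly, so WT and KO below are the groups as labelled. Libraries of a group all differed by more than counting noise (lowest chi-square divided by its degrees of freedom, 4.34).

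The 8 genes lie within 537.4 kb of mouse chromosome 19 (build mm10/GRCm38), and the interval of each in the count table equals that of GENCODE release M21. Ms4a8a (ENSMUSG00000024730, chr19:11067471-11081102) lies at one end. Ms4a14 (ENSMUSG00000099398, chr19:11301249-11314454) and Ms4a7 (ENSMUSG00000024672, chr19:11321039-11336146) follow, both on the minus strand like Ms4a8a. The 4 genes on the plus strand come next, and Ms4a6d (ENSMUSG00000024679, chr19:11586604-11604849), on the minus strand, lies at the other end. The plus-strand genes are Ms4a4a (ENSMUSG00000101389, chr19:11375523-11392790), Ms4a4c (ENSMUSG00000024675, chr19:11404770-11427246), Ms4a6c (ENSMUSG00000079419, chr19:11469366-11482192) and Ms4a6b (ENSMUSG00000024677, chr19:11516512-11531256).

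Of the members, 3 overlap an annotated gene on the opposite strand, and whether the counting used strand is not given in the sources used here. The exons of Ms4a6c share 1088 bases with those of BE692007, a processed transcript, and 893 of the 1742 windows of 100 bases in its longest transcript (51.3%) also occur in a transcript of BE692007 or Prdm11. The counts of Ms4a6c are therefore uncertain, since read pairs of these genes cannot be told apart there. Ms4a4c shares 28 exonic bases with the pseudogene Gm5692 and Ms4a6b 19 with Gm19261. Of the windows of Ms4a4c, 28 of 1624 (1.72%) also occur in Ms4a4b, and the other 6 members had 0 shared windows.

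RefSeq promoter windows of build GRCm38.p6, from 250 bases before to 50 bases after a transcription start, were at hand for 7 of the 8 members (8 windows, 2 of them for Ms4a7), and Ms4a6d had none. Shown are a pair of windows that are alike although their genes stood at 250.3 and 0.662 FPKM (a level per gene length, below) in WT LPS libraries, Ms4a4c and its relative Ms4a4b, and a pair with the same interferon-type match, Ms4a6b and Ms4a6c. Capitals mark matches to GAAANNGAA, the core of the interferon-stimulated response element, or to GAGGAA, the core site of the macrophage factor PU.1, searched on both strands.
Ms4a4c, chr19:11407411-11407710, plus strand: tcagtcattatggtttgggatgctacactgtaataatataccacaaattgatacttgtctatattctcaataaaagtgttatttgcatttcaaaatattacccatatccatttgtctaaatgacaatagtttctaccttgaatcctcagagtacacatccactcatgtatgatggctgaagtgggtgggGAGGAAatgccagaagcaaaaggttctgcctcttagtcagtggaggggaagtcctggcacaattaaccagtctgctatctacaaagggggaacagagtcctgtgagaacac
Ms4a4b, chr19:11443308-11443607, plus strand: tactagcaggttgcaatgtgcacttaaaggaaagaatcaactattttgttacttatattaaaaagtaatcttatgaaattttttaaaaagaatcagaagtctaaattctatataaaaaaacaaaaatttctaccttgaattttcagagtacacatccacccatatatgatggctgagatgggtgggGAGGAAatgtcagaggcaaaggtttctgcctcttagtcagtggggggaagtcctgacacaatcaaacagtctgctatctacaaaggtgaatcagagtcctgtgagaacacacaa
Ms4a6b, chr19:11518309-11518608, plus strand: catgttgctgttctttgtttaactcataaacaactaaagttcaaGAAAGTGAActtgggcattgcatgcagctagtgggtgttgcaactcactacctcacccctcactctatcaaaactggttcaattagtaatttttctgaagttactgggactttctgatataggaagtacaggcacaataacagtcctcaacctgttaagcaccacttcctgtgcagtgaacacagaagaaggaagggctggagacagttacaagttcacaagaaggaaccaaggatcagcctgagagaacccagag
Ms4a6c, chr19:11469118-11469417, plus strand: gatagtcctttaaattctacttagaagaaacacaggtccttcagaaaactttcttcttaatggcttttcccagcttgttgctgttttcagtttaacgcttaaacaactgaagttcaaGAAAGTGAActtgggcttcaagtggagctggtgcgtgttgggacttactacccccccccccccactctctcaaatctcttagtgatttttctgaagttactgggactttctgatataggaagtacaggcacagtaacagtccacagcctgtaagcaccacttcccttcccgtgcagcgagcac

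The windows of Ms4a4c and Ms4a4b had 73.8% identical positions in a global alignment, and both held the PU.1 core, 61 and 64 bases before the start. The window of Ms4a4c starts inside the interval that the count table gives for the gene. Ms4a6b and Ms4a6c shared an unbroken run of 48 bases, and the match to GAAANNGAA lay 206 and 133 bases before their starts. Each window of Ms4a7 also held a match to GAAANNGAA, so 4 of 8 windows held it, where 8.56% of the 32851 windows of this length in the RefSeq table did. The 4 are not separate cases, since both windows of Ms4a7 count and those of Ms4a6b and Ms4a6c share sequence. The window of Ms4a4c held no match to GAAANNGAA. GAGGAA was in 3 of 8 windows (28.3% of all), the NF-kB consensus in 1 of 8, that of Ms4a4a (4.51% of all), and the interferon gamma activated site TTCNNNGAA in 0 of 8 (8.3% of all). The canonical E-box CACGTG, the sequence to which CLOCK and BMAL1 bind, was in 0 of 8 (7.15% of all). A match describes letters in a window and does not show a bound site.

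In vehicle-treated macrophages the family was unequal in level. Per kilobase of gene length (FPKM, from the deposited counts and lengths), Ms4a6d stood first in WT with 91.0 ± 6.2 FPKM (SD, n = 3), or 41.94% of the sum over the family. Ms4a7 followed with 59.0 ± 8.26, Ms4a4a with 31.4 ± 10.5, Ms4a6c with 19.4 ± 0.606, Ms4a6b with 7.61 ± 0.331, Ms4a14 with 6.49 ± 0.825 and Ms4a4c with 1.97 ± 0.461 FPKM. Ms4a8a, a gene described in alternatively activated macrophages, was near absence at 0.0306 ± 0.0267 FPKM, with 0 to 2 counts per WT vehicle library. Libraries of neighbours in this order did not overlap, apart from Ms4a6b and Ms4a14, which stood in the same order in each of 3 libraries. KO vehicle libraries gave the same order of means, but 5 of the 7 pairs of neighbours overlapped there. Ms4a6d and Ms4a7 kept their order in 5 of 6 KO libraries, and so did Ms4a14 and Ms4a4c.

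LPS rearranged the family. The summed level went from 217 to 1628 FPKM in WT and from 225 to 1643 FPKM in KO. Ms4a6d still stood first, with 806 ± 17.3 FPKM in WT (49.53% of the sum). Ms4a4c moved from the seventh to the second place, with 250 ± 9.78 FPKM in WT and 255 ± 35.1 FPKM in KO, and its share of the sum went from 0.909 to 15.38% in WT and from 1.131 to 15.52% in KO. Ms4a7 moved from the second to the fifth place, with a share of 27.21% in WT vehicle and 6.09% in WT LPS. In WT LPS libraries Ms4a4a and Ms4a6c overlapped at 208 ± 11.7 and 205 ± 4.93 FPKM, and the other neighbours did not. In KO LPS libraries Ms4a4c overlapped with Ms4a4a (in order in 4 of 6 libraries), so its second place did not stand clear of the spread there.

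**Figure D1:**
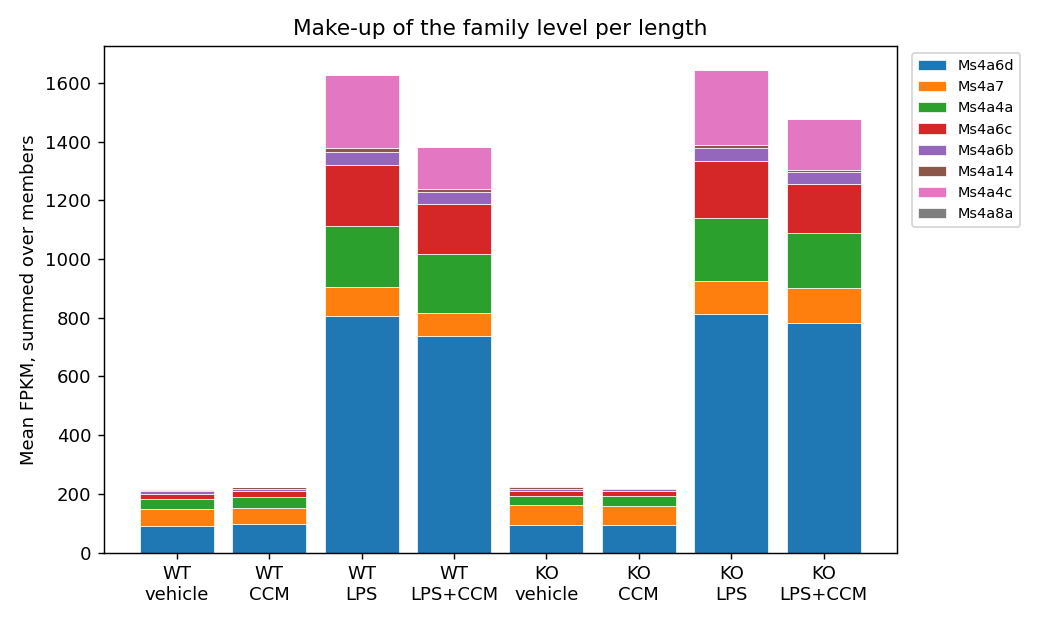
Mean FPKM of the 8 members stacked for each of the 8 groups (n = 3 WT and 6 KO libraries per group). The WT vehicle and LPS bars reach 217 and 1628 FPKM, the KO bars 225 and 1643 FPKM, and the band of Ms4a4c, hardly visible without LPS, takes 15.38% of the WT LPS bar and 10.48% of the WT LPS+CCM bar.

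The question asked of LPS against vehicle was how the members respond to the stimulus. The LPS libraries are shared with the contrast behind the choice of the members. Genes were called at an edgeR adjusted p of at most 0.05, which 63% of the 14501 genes tested passed in WT and 47.1% of 13648 in KO. Against that background 7 of the 7 members tested rose in both genotypes, with a median log2 change of 2.75 in WT and in KO, where the medians over all tested genes were -0.05 and -0.05. Ms4a8a did not pass the filter on low counts in either. A fit with the replicate block called 9774 genes and 7 of 7 members in KO. There, deviations from the group mean correlated at 0.298 to 0.83 between same-numbered libraries, with a median of 0.172 between others.

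Ms4a4c had the largest change of the members. Its levels in WT were 2.54, 3.73 and 4.09 CPM with vehicle and 421, 439 and 455 CPM with LPS. In KO the lowest, median and highest levels were 2.10, 4.40 and 7.46 CPM with vehicle and 367, 439 and 555 CPM with LPS. Every LPS library stood far above each vehicle library. The log2 change was 7.00 in WT (SE 0.137, edgeR adjusted p = 6.87e-11) and 6.65 in KO (SE 0.317, adjusted p = 1.94e-09).

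**Figure D2:**
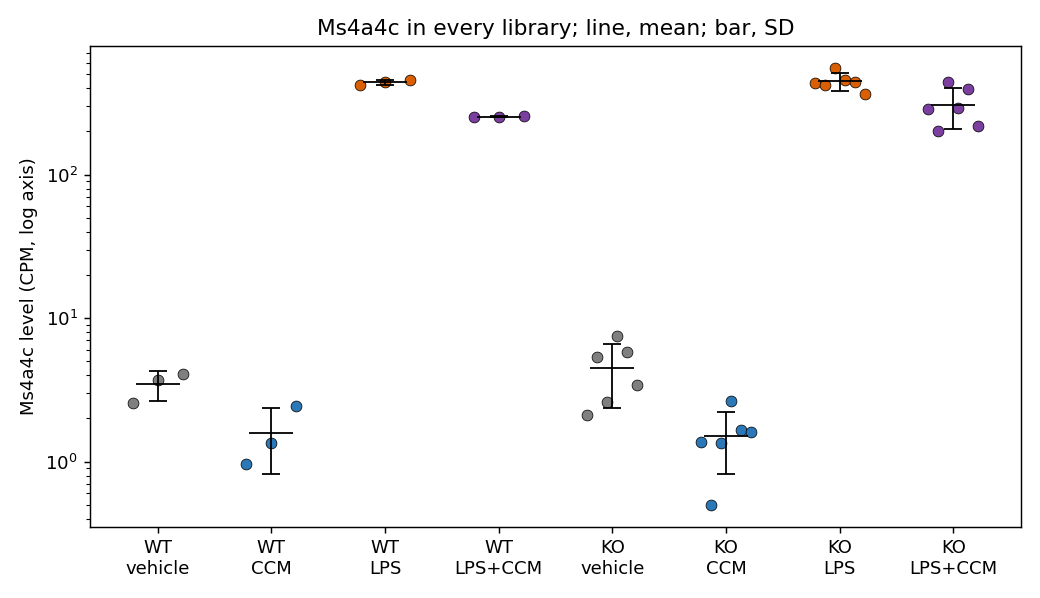
Ms4a4c in CPM (log axis) in each library by group, with the mean as a line and the SD as a bar (n = 3 WT, 6 KO). The LPS libraries lie between 367 and 555 CPM and the WT LPS+CCM libraries between 251 and 257 CPM, while the libraries without LPS reach at most 7.46 CPM.

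The 3 Ms4a6 genes changed by 2.60 to 3.43 in WT on the log2 scale, with Ms4a4a between Ms4a6d and Ms4a6b. Ms4a6d, whose protein has been found with the complement receptor Vsig4, stood at 160, 146 and 167 CPM in WT vehicle and at 1385, 1433 and 1378 CPM in WT LPS libraries. Its log2 change was 3.18 in WT (SE 0.0673, adjusted p = 1.12e-10) and 3.12 in KO (SE 0.110, adjusted p = 1.47e-10). Neither genotype's groups overlapped, and the KO LPS libraries ranged from 1138 to 1584 CPM around a median of 1444 CPM. Ms4a6c went from 40.8, 39.9 and 38.4 CPM to 420, 431 and 411 CPM in WT, a log2 change of 3.43 (SE 0.0574), with 3.42 in KO (SE 0.259). Its opposite-strand partner BE692007 rose as well, from 5.47 ± 1.15 to 43.4 ± 4.85 CPM in WT (log2 change 3.03, SE 0.146, adjusted p = 4.43e-08), so both share their direction and part of their sequence. Ms4a6b went from 33.6, 33.0 and 35.8 CPM to 190, 207 and 213 CPM in WT, a log2 change of 2.60 (SE 0.0691), with 2.67 in KO (SE 0.177).

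Ms4a4a, the partner of Dectin-1, stood at 19.0, 23.8 and 36.04 CPM in WT vehicle and at 164, 176 and 183 CPM in WT LPS libraries. Its log2 change was 2.75 in WT (SE 0.195, adjusted p = 8.55e-07) and 2.75 in KO (SE 0.333, adjusted p = 1.44e-05), without overlap in either. In KO the LPS libraries spread widely, with a lowest level of 63.6, a median of 197 and a highest level of 246 CPM.

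The smallest changes were those of Ms4a14 and Ms4a7. Ms4a7, a marker of several tissue macrophage populations, stood at 302, 229 and 258 CPM in WT vehicle and at 476, 422 and 426 CPM in WT LPS libraries. Its log2 change was 0.78 in WT (SE 0.0908, adjusted p = 3.67e-05) and 0.73 in KO (SE 0.187, adjusted p = 0.00554), where the groups overlapped although the LPS library was higher in 6 of 6 same-numbered pairs. Ms4a14 stood at 30.3, 24.2 and 24.7 CPM in WT vehicle and at 65.7, 47.6 and 45.2 CPM in WT LPS libraries. The log2 change was 1.03 in WT (SE 0.140, adjusted p = 0.000115) and 0.92 in KO (SE 0.338, adjusted p = 0.0399). In KO the groups overlapped, the LPS library was higher in 6 of 6 pairs, and the call was lost without any 1 of KO replicates 1 to 5 (adjusted p 0.0840 to 0.104) and kept without KO replicate 6 (1.72e-05).

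Ms4a8a stayed near the limit of detection. The WT libraries held 2, 2 and 0 counts with vehicle and 3, 12 and 14 counts with LPS, and the KO LPS libraries held 1 to 18 counts (0.0810 to 1.04 CPM). It was not tested in the main fits, whose filter it did not pass, and no fold is given at these counts. DESeq2 (adjusted p = 0.0207 in WT and 0.00507 in KO) and edgeR without a filter (0.00197 and 0.0219) called it higher with LPS. Both use the same libraries and are not separate support. Other alternative fits kept it only through its counts with LPS, so their calls are no support for a rise. In KO the counts overlapped, with 0 to 4 for vehicle and 1 to 18 for LPS. KO replicate 6 held 3 counts with vehicle and 1 with LPS.

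**Figure D3:**
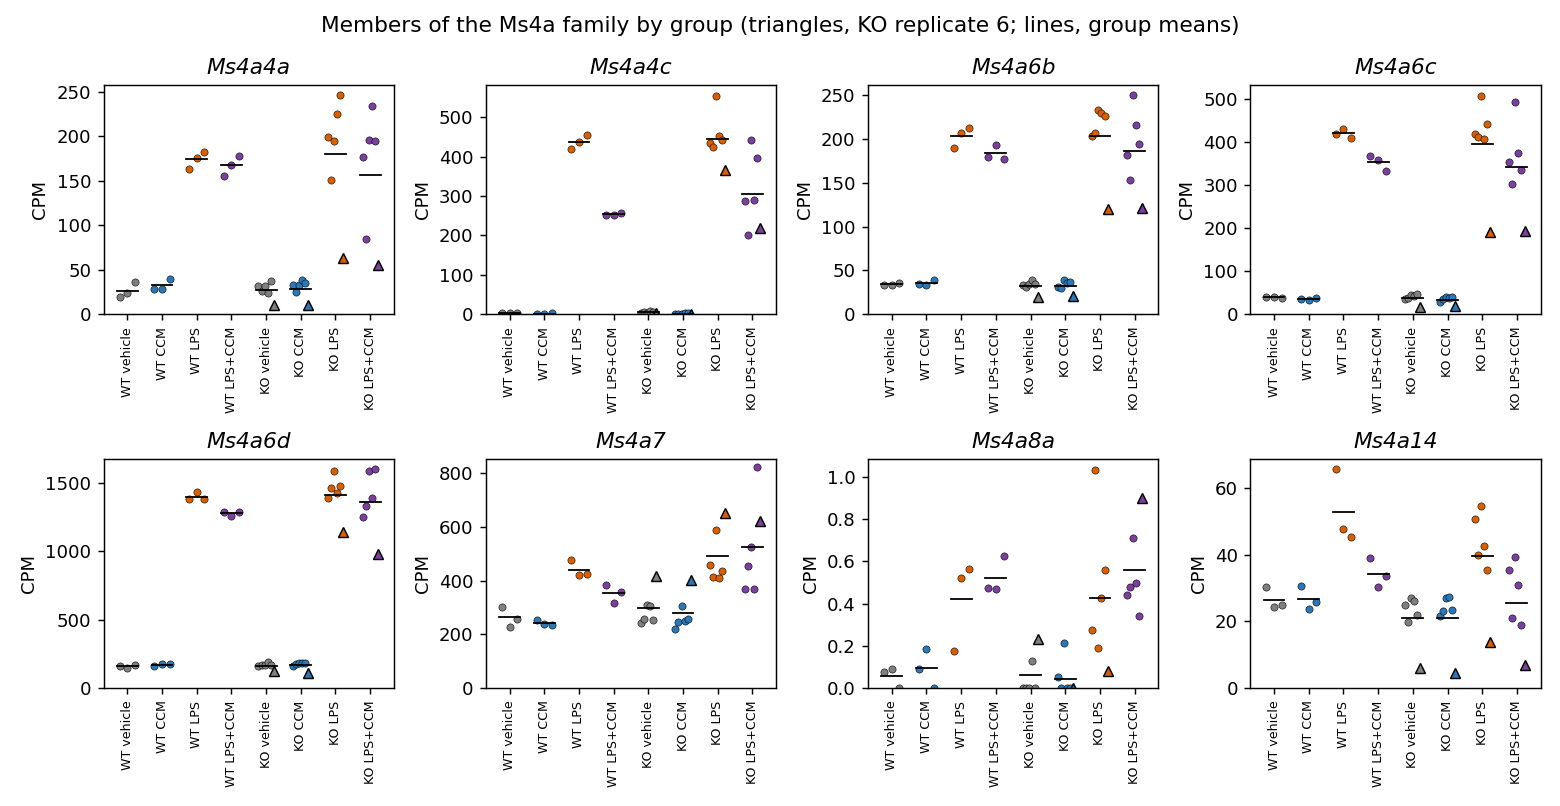
CPM of each member in every library by group, on linear axes from 0, with the group mean as a line and KO replicate 6 as a triangle. LPS libraries stand above vehicle libraries in each panel other than those of Ms4a7, Ms4a8a and Ms4a14, where KO libraries overlap, and KO replicate 6 lies below the other KO libraries for Ms4a4a, Ms4a6b, Ms4a6c, Ms4a6d and Ms4a14 in each treatment.

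The response to LPS in the presence of CCM was examined with LPS+CCM against CCM, whose LPS+CCM libraries are again shared with the contrast behind the choice. In WT, 61.5% of the 13907 genes tested were called, and 7 of 7 members rose. In KO it was 38.2% of 13727 genes and 6 of 7 members, with Ms4a14 not passing (log2 change 0.28, SE 0.409, adjusted p = 0.647). Ms4a4c changed by 7.29 in WT (SE 0.167, adjusted p = 7.41e-11) and by 7.66 in KO (SE 0.389, adjusted p = 3.95e-09). The changes of Ms4a6c (3.32 and 3.38 in WT and KO), Ms4a6d (2.92 and 3.05), Ms4a4a (2.37 and 2.45) and Ms4a6b (2.37 and 2.55) were followed by those of Ms4a7 (0.55 and 0.91). Ms4a14 in WT gave 0.36 (SE 0.115, adjusted p = 0.0197), with overlapping groups, and its call was lost without WT CCM replicate 2 or 3 or without WT LPS+CCM replicate 1 (adjusted p up to 0.0843).

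CCM was compared with vehicle to see its action without LPS, in libraries that take no part in the contrast behind the choice. Of the 14024 genes tested in WT 0.057% were called, and of the 13799 in KO 0%. In the main edgeR fits none of the 7 members tested was called in either genotype. At an unadjusted p under 0.05 there was 1 of 7 members in each, Ms4a4c, beside 10% of all genes tested in WT and 2.41% in KO, and DESeq2 called 0 members in WT and 1 in KO, again Ms4a4c.

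Ms4a4c stood at 0.965, 1.35 and 2.46 CPM in the WT CCM libraries, each under the lowest WT vehicle library (2.54 CPM). These levels rest on 21 to 60 counts per library with CCM and 67 to 134 with vehicle, and those in KO on 11 to 51 and 44 to 233. The 11 counts are those of KO replicate 2 with CCM, which gave the largest KO difference (-3.20 in log2 CPM). In KO the CCM libraries ran from 0.501 to 2.66 CPM with a median of 1.48 CPM and overlapped with the vehicle libraries. The log2 difference was -1.09 in WT (SE 0.349, edgeR adjusted p = 0.335, unadjusted p = 0.0115) and -1.55 in KO (SE 0.394, adjusted p = 0.930, unadjusted p = 0.00183). The CCM library was lower than its same-numbered vehicle library in 3 of 3 WT and 6 of 6 KO pairs. With the replicate number as a block in edgeR, Ms4a4c fell by 1.54 in KO (SE 0.278, adjusted p = 0.0131), a fit that called 429 genes in all. Deviations from the group mean correlated there at 0.337 to 0.844 between same-numbered libraries, but also at a median of 0.221 between others. Whether equal numbers mark 1 mouse is not given. The call in KO was also made by DESeq2 (adjusted p = 0.0496) and by a fit of all 36 libraries (0.0228). Both reuse the same libraries and are not separate support. The fit of all 36 also takes its filter and dispersion in part from libraries of the contrast behind the choice. Whether Ms4a4c passes thus depended on the fit, in WT as well. Leaving out single libraries in WT, or 1 replicate number from both groups in KO, gave no call, with edgeR adjusted p from 0.225 in WT and from 0.0862 in KO. These fits had no block, like the main fits without a call, so they do not test the blocked call in KO.

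The other 6 members showed no call in any fit of CCM against vehicle. Their log2 differences ran from -0.15 (Ms4a6c, SE 0.0685) to 0.31 (Ms4a4a, SE 0.222) in WT and from -0.17 (Ms4a6c, SE 0.231) to 0.10 (Ms4a4a, SE 0.316) in KO. Ms4a6c stood at 34.8, 33.8 and 37.7 CPM in WT CCM libraries, just under its vehicle range of 38.4 to 40.8 CPM, with an adjusted p of 0.507.

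LPS+CCM against LPS is the contrast that led to the choice of this family, and its values are given as a description. In WT, Ms4a4c stood at 253, 251 and 257 CPM with LPS+CCM, or 57.86% of the LPS mean, and every library lay under the LPS libraries. The log2 difference was -0.78 (SE 0.0438). In KO the lowest, median and highest LPS+CCM libraries held 200.045, 289 and 443 CPM, or 68.54% of the LPS mean, and the groups overlapped. There the log2 difference was -0.57 (SE 0.191), and the LPS+CCM library was lower in 6 of 6 same-numbered pairs, with log2 differences from -0.16 (replicate 5) to -1.08 (replicate 2). Per length Ms4a4c took the fourth place in WT LPS+CCM libraries with 145 ± 1.62 FPKM and a 10.48% share of the family, and it overlapped with Ms4a4a and Ms4a6c in KO (175 ± 55.1 FPKM).

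**Figure D4:**
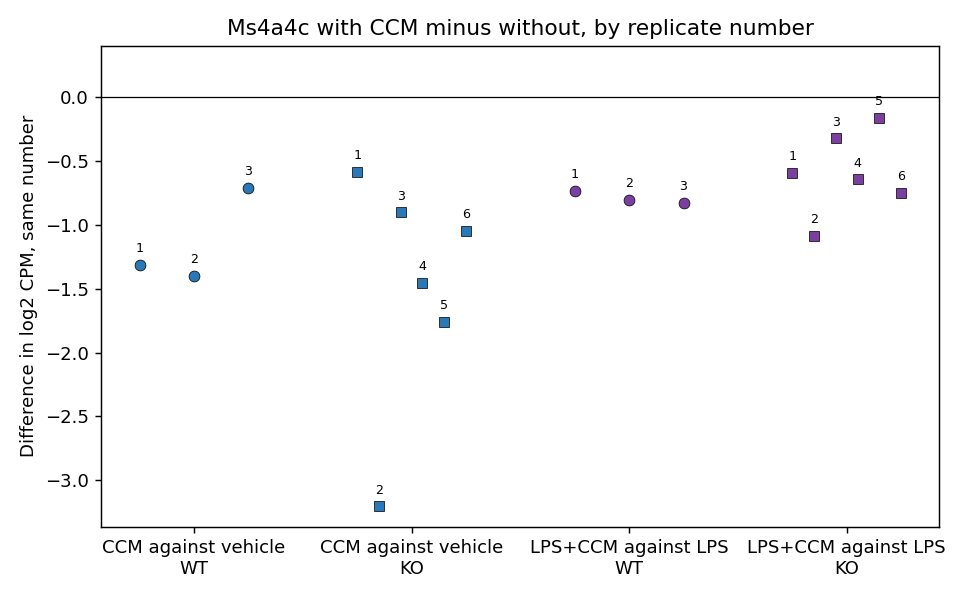
Difference in Ms4a4c log2 CPM between the library with CCM and the same-numbered library without it, for CCM against vehicle and LPS+CCM against LPS in WT (circles) and KO (squares), with the replicate number above each point. Every point lies below 0, and the spread is widest for CCM against vehicle in KO, from -3.20 to -0.59.

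In WT the other members differed less than Ms4a4c in this contrast, and in KO Ms4a14 stood lowest. In WT, 5 of 7 members had all LPS+CCM libraries lower than the LPS libraries, a count to be read beside 15.8% of the 13579 genes tested. In KO it was 0 of 7, beside 0.672% of 13386 genes. Genes called were 11.9% in WT and 0.112% in KO. Ms4a14 had the nearest log2 difference to that of Ms4a4c, with -0.62 in WT (SE 0.141), where it went to 38.9, 30.2 and 33.4 CPM, and -0.66 in KO (SE 0.371), where its groups overlapped and 6 of 6 pairs were lower (-0.98 to -0.46). Ms4a7 stood at 382, 317 and 358 CPM in WT LPS+CCM libraries (-0.32, SE 0.0738) and differed by 0.07 in KO (SE 0.218), where 2 of 6 pairs were higher. Ms4a6c stood at 369, 358 and 333 CPM (-0.24, SE 0.0490), with -0.24 in KO (SE 0.228), and its partner BE692007 at 42.0 ± 3.74 CPM, with groups that overlapped. Ms4a6d (-0.12), Ms4a6b (-0.14) and Ms4a4a (-0.05) differed least in WT, at 91.32, 90.3 and 96.12% of their LPS means. The medians over the members tested were -0.24 in WT and -0.22 in KO, beside 0.014 and 0.0043 over all genes tested.

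**Figure D5:**
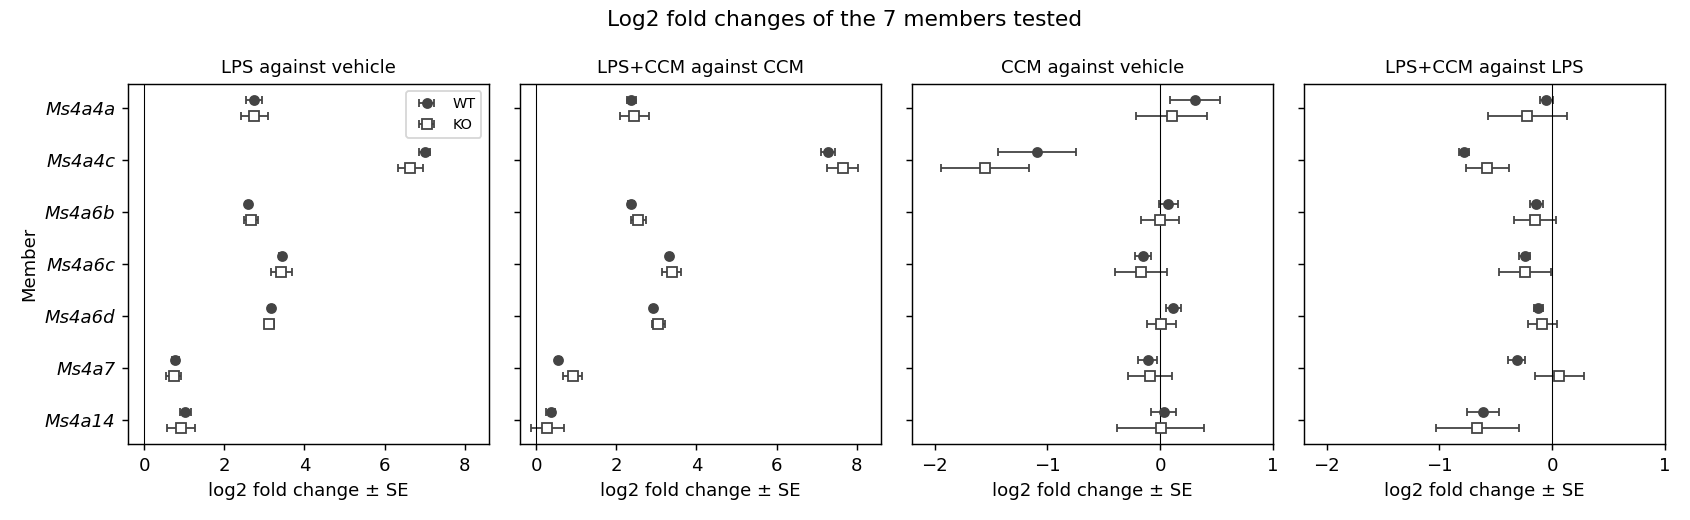
Log2 fold changes with their SE for the 7 members tested in each of the contrasts of treatment, WT as filled circles and KO as open squares, with wider axes in the LPS panels on the left. Ms4a4c is the highest point of both LPS panels (7.00 and 7.29 in WT) and the lowest of CCM against vehicle (-1.09 in WT and -1.55 in KO).

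Genotype was compared in the vehicle libraries, in the LPS libraries and as the difference between the LPS responses. The share of genes called by edgeR was 0% of 14385, 0% of 13794 and 0% of 15093, and 0 of the 7 members tested were called in each. DESeq2 called 0 members in each, and 0 members had an unadjusted p under 0.05. Log2 differences of KO against WT ran from -0.30 (Ms4a14, SE 0.351) to 0.41 (Ms4a4c, SE 0.397) with vehicle and from -0.40 (Ms4a14, SE 0.330) to 0.19 (Ms4a7, SE 0.180) with LPS. For Ms4a4c under LPS the difference was 0.05 (SE 0.121). The interaction ran from -0.35 (Ms4a4c, SE 0.394) to 0.09 (Ms4a6b, SE 0.252).

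KO replicate 6 stood apart in the family. In its 4 libraries Ms4a4a (9.92, 10.2, 63.6 and 55.2 CPM with vehicle, CCM, LPS and LPS+CCM) lay below each of the other KO libraries of the treatment. The same held in all 4 treatments for Ms4a6b, Ms4a6c, Ms4a6d and Ms4a14. Ms4a14 was lowest in relative terms, at 5.89 CPM with vehicle where the other KO libraries held 19.7 to 26.9 CPM. Ms4a7 went the other way, at 418, 402 and 651 CPM with vehicle, CCM and LPS against highest values of 310, 305 and 590 CPM in the others, and was within their range with LPS+CCM (621 CPM). Ms4a4c was within the range of the others apart from the LPS library (367 CPM, where the others held 424 to 555 CPM). The 7 neutrophil and precursor markers summed to 943 to 969 CPM in KO replicate 6 and 320 to 894 CPM in the other 32 libraries. The erythroid markers summed to 4.78 to 11.1 CPM there (median 8.89) and 1.20 to 7.32 CPM in the others (median 2.79), the B-cell markers to 99.1 to 195 CPM (median 138) and 21.9 to 252 CPM (median 62.4), and the fibroblast markers to 314 to 602 CPM (median 465) and 302 to 1660 CPM (median 713). The part of these cells in the members' values was not tested.

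The spread within groups tied some members together. Over deviations from the group means in 36 libraries, Pearson's r was 0.950 for Ms4a6b and Ms4a6c, 0.888 for Ms4a6b and Ms4a6d and 0.908 for Ms4a4a and Ms4a6b. Without KO replicate 6 (32 libraries) these were 0.804, 0.681 and 0.676. Ms4a4c had lower values with these genes, from 0.294 (Ms4a6c) to 0.392 (Ms4a6b), and 0.382 and 0.531 without KO replicate 6. Ms4a7 gave -0.568 with Ms4a4a and -0.594 with Ms4a14, which became -0.138 and -0.130 without KO replicate 6. These values share libraries, treatments and scaling and are descriptions.

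Genes with the most similar pattern over the 8 group means of log2 CPM were sought among 11481 genes, and these values too are a description that LPS dominates. For Ms4a4c they were Ifit3b (Pearson's r = 0.9995), Ifit3 (0.999) and the adaptor gene Scimp (0.999), the IFIT genes being interferon-induced antiviral genes. For Ms4a6d they were the receptor gene Tlr2 (0.9999), Ccdc86 (0.9998) and Nfkbia (0.9997), which encodes the NF-kB inhibitor IkB-alpha. Ms4a6c was nearest to Icam1, an adhesion receptor, Plek and Ifi209 (0.9998 to 0.9996), and Ms4a6b to Snx10, the RNase gene Zc3h12a and Dram1 (0.9997 to 0.9996). Ms4a4a followed Slc25a37 and Rhbdf2 (0.9997 and 0.9991), Ms4a7 Pomp, Tmem192 and Med28 (0.9981 to 0.9959), and Ms4a14 Rpgrip1l, Dock10 and Phlpp1 (0.9954 to 0.9937).

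Other Ms4a genes of the cluster were low, and several of them and of their relatives rose with LPS, as the members did. Of 13 such genes in the count table, 6 were tested for LPS in WT, of which 4 rose and 1 fell, beside 63% of all genes tested called. Ms4a4b, known from T cells, rose from 0.713 ± 0.196 to 3.49 ± 0.862 CPM in WT (log2 change 2.32, SE 0.299), and Ms4a4d from 0.201 ± 0.116 to 2.51 ± 0.178 CPM (3.60, SE 0.395). Tmem176a and Tmem176b, relatives on chromosome 6, rose by 1.13 (SE 0.140) and 0.93 (SE 0.130). Ms4a3, a gene of granulocyte-monocyte progenitors, fell by 0.84 (-0.84, SE 0.277, adjusted p = 0.0235) in WT and did not pass in KO (-1.02, SE 0.397, adjusted p = 0.0510). Ms4a2 did not pass in either (0.47 and 0.25). Ms4a1, the CD20 gene, held 3 to 7 counts per WT vehicle library and was not tested. In KO 4 of 6 rose and 0 fell, beside 47.1% of all genes tested called. With CCM alone, 0 of 5 were called in WT and 0 of 4 in KO, by the main edgeR fits (0.057% and 0% of all genes). In LPS+CCM against LPS, Ms4a2 (-1.49) and Ms4a4d (-1.21) of 6 fell in WT and 0 of 6 were called in KO. Over all genes tested it was 11.9% in WT and 0.112% in KO.

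Among 12 receptors, adaptors and proteases that MS4A proteins or TREM2 are known to work with, 3 rose and 8 fell with LPS in WT, and 3 rose and 6 fell in KO. These counts stand beside 63% of all genes tested called in WT and 47.1% in KO. The kinase gene Syk (2.35 in WT and 2.29 in KO), the Fc receptor chain Fcer1g (1.17 and 1.19) and the protease gene Adam17 (1.45 and 1.30) rose in both. Clec7a, which encodes Dectin-1, changed by -1.41 and -1.40, against the direction of its partner Ms4a4a. Trem2 (-1.12 and -1.06), Fcgr3 (-0.95 and -0.92), Adam10 (-0.88 and -0.87) and the scavenger receptor Cd36 (-0.59 and -0.57) also fell in both. With CCM alone 0 of 12 were called by the main edgeR fits in either genotype (0.057% of all genes in WT and 0% in KO). In LPS+CCM against LPS 2 rose and 1 fell in WT and 0 were called in KO, beside 11.9% and 0.112% of all genes tested.

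For reference, 20 of 20 interferon-stimulated genes rose with LPS in WT with a median log2 change of 7.33, among them Ifit1 (8.29), Ifit2 (7.96), Ifit3 (7.21) and Isg15 (7.69). Over all genes tested, 63% were called in this comparison. Of the NF-kB and inflammatory genes 14 of 14 rose, with a median of 6.42, among them Tnf (6.18), Il1a (9.75), Il1b (10.66) and Il6 (10.53). The change of Ms4a4c (7.00) thus lay near both medians, and those of the other members tested lay below them. In CCM against vehicle 0 of 20 and 0 of 11 genes of these lists were called by the main edgeR fits in each genotype. Over all genes tested it was 0.057% in WT and 0% in KO. Their median log2 differences were -0.23 and -0.20 in WT and -0.92 and -0.40 in KO, where 1 of 20 and 1 of 11 were above 0, beside -1.09 and -1.55 for Ms4a4c. In LPS+CCM against LPS the medians were -0.51 and -0.63 in WT and -0.49 and -0.44 in KO, beside -0.78 and -0.57 for Ms4a4c. Genes called lower were 20 of 20 and 13 of 14 in WT and 1 and 0 in KO. Over all genes tested, 11.9% were called in WT and 0.112% in KO. Few genes passed at all in KO, so these counts do not compare the genotypes.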

How the data were processed

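RNA-seq of 36 BMDM libraries was used, 3 WT and 6 KO per treatment. The authors enriched poly(A) RNA, trimmed reads with fastp, aligned them to mm10 with HISAT2 2.0.5 and made gene counts with featureCounts 1.5.0-p3. They deposited raw counts for 54532 genes, with gene length. All 36 count columns were used, and the deposited counts hold 0 rows without a gene name. The strand setting is not given in the sources used here.

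Only the groups compared entered a fit, made with edgeR 4.0.16 in R 4.3.3 (filterByExpr, TMM, glmQLFit, glmQLFTest, two-sided, Benjamini-Hochberg over all genes tested, threshold 0.05). The study's own test was DESeq2, used here (1.42.0) as an alternative. Other alternatives were a block for the replicate number, 1 fit of all 36 libraries, RLE scaling, keeping every gene with at least 1 count, and leaving out libraries. Total counts without TMM and upper-quartile scaling were added after seeing the data. CPM use TMM factors, and log2 CPM a prior count of 2. FPKM are these CPM per kilobase of gene length. The fits were tested on simulated data with 200 changed genes.

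The members and all lists were chosen with earlier results of these data known. Named were all members, every tested relative in the cluster, every partner called for LPS in both genotypes, up to 4 genes of each reference list in list order, and for each member with a mean of at least 1 FPKM the 3 most similar genes with an average log2 CPM of at least 1, of which 1 gene is not reported here. The gene Ifit3 is both a listed and a similar gene, and BE692007, Ms4a1 and the genes of failed calls were named after their values were seen. To see whether equal replicate numbers pair libraries, each library was centred on its group mean and same-numbered libraries were correlated. The correlation was over 0.1 in each pair for LPS in KO (0.298 to 0.83), CCM in KO (0.337 to 0.844) and LPS+CCM against LPS in WT (0.151 to 0.36), and not in the other treatment comparisons. Differently numbered libraries had medians of 0.172, 0.221 and -0.132 there. Passing 0.1 in KO therefore does not by itself show pairing. For CCM in WT, which did not pass, the lowest same-numbered correlation was 0.0511 and the median of others -0.0967. The study gives n as mice (3 WT, 6 KO). Whether libraries with 1 number in different treatments come from 1 mouse is not given in the sources used here. At these totals the spread between replicates, not counting error, limits the precision, apart from genes with few counts such as Ms4a8a and, without LPS, Ms4a4c.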

Additional observations from a re-analysis of the deposited data

Results flagged for a closer look

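In groups of 6 KO libraries, 1 library stood far from the others in 6 of the 32 combinations of member and group examined. For separate, normally distributed values chance marks about 1 in 20. Members of a group come from the same libraries and several vary together, so the 32 are not separate chances. KO replicate 6 made up 5 of the 6. With LPS it held 119.6 CPM of Ms4a6b (the others 203.8 to 233.1) and 191.8 CPM of Ms4a6c (406.5 to 508.7). With CCM it held 107.9 CPM of Ms4a6d (159.5 to 184.3) and 4.455 CPM of Ms4a14 (21.51 to 27.27), and with vehicle 5.888 CPM of Ms4a14 (19.67 to 26.89). The sixth was KO replicate 3 with CCM, at 0.2123 CPM of Ms4a8a, a gene with few counts. The summed levels of the 7 neutrophil and precursor markers (943 to 969 CPM, the others 320 to 894) and of the 6 erythroid markers (4.78 to 11.1 CPM, the others 1.20 to 7.32) also ran higher in KO replicate 6, as did the median of the 5 B-cell markers (138 against 62.4 CPM), and their part was not tested.

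Each of 3 members went in opposite directions in every WT pair with CCM alone and with CCM under LPS. All 8 members had been examined for this over several pairs of contrasts. Same-numbered WT libraries did not pass as pairs for CCM alone (lowest correlation 0.0511). Single differences there were as small as 0.0106 (Ms4a6d) and 0.0126 (Ms4a6b). The mean log2 CPM differences were 0.3358 and -0.05759 for Ms4a4a, 0.05861 and -0.1464 for Ms4a6b, and 0.1073 and -0.1309 for Ms4a6d. The difference between these effects was not tested, and the second of them is the contrast that led to the choice of the family.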

How the results depend on the processing

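Of 844 values recomputed under the alternatives for 62 results, 810 were counted as kept, and 363 of the 364 values for LPS kept a log2 change above 0. For log2 changes, kept means the same direction and side of the threshold, or a move of less than 1 SD. Counts of members called (124 of 129 kept) could change and still be kept, such as from 7 to 5 in LPS+CCM against CCM in WT with all 36 libraries. Members called with CCM alone became 1 in WT without a filter (edgeR adjusted p = 0.0205) and with the replicate block (-1.13, adjusted p = 0.0311). The count became 1 in KO with DESeq2, the replicate block and all 36 libraries, and the member was Ms4a4c in each case. Same-numbered WT libraries did not all pass 0.1 (lowest 0.0511, median of others -0.0967), and 5 of 6 libraries correlated best with their own number. The replicate block changed no other call of a member in the tested comparisons. Leaving out libraries, in fits without a block, gave 0 members in both genotypes, with Ms4a4c at -1.58 to -0.83 in WT and -1.67 to -1.31 in KO. With total counts alone Ms4a4c under LPS moved to -0.70 (-0.7019) in WT, and Ms4a14 in LPS+CCM against CCM in KO reversed to -0.08102. Ms4a4a with CCM in KO ranged from -0.03852 to 0.1775 without single replicates, and Ms4a4c in KO against WT from -0.02141 to 0.08883 under LPS, for reasons not tested. For vehicle Ms4a4c in KO against WT was at -0.09242 with the replicate block. That block joins different mice that share only a number, and KO replicates 4 to 6 have no WT partner in it, so this value is no fair alternative. Calls of Ms4a14 for LPS were lost in KO without a filter (0.0593), with total counts (0.269) and with upper quartiles (0.0907), in WT with all 36 libraries (0.108), and for LPS+CCM against CCM in WT with the last 3 settings, as was Ms4a7 with all 36 libraries (0.106). Total counts shifted the median of all genes with LPS by -0.41 in WT and -0.38 in KO, upper quartiles by -0.18 and -0.19, and the share of higher calls in WT went from 48.6% to 24 and 36%. In LPS+CCM against LPS in WT that share went from 34.8 to 67.7% with total counts. Genes called for CCM alone were 8 in WT against 247 (DESeq2), 377 (no filter), 255 (block), 4 (upper quartiles), 0 (all libraries) and 0 to 16 (leaving out libraries). In KO they were 0 against 24, 0, 429, 0, 14 and up to 141 (without KO replicate 6). For LPS+CCM against LPS they were 1621 in WT against 3220 (block), 17 (all libraries) and 893 to 1352 (leaving out libraries), and 15 in KO against 180 (DESeq2), 10 (no filter), 777 (block), 285 (all libraries) and 0 to 170 (leaving out replicates, highest without KO replicate 6). For LPS they were 9139 in WT against 5644 (all libraries) and 6433 in KO against 9774 (block), and for LPS+CCM against CCM 8555 in WT against 4883 (all libraries). Ms4a8a did not pass the main filter. In LPS+CCM against CCM, DESeq2 (adjusted p = 0.0281 in WT and 6.88e-05 in KO) and edgeR without a filter (0.00576 and 0.00436) called it higher. The fit of all 36 libraries kept it only through its counts with LPS, so its results are no support (0.0641 in WT and 0.000574 in KO). For CCM alone or genotype 0 of its fits called it.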
